A study of Mus musculus with 30 samples.

Results

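The 10 transcription factors described here were grouped as mesendoderm lineage factors. They are the zinc finger repressors *Snai1* and *Snai2*, the GATA factors *Gata4* and *Gata6*, the T-box factor *Eomes*, the homeobox factors *Mixl1*, *Gsc* and *Lhx1*, the forkhead factor *Foxa2* and the HMG-box factor *Sox17*. Each was taken from the transcript cluster annotated with that symbol and no other, and if several existed, the cluster with the highest mean over 30 arrays was used. All 10 were found among 22180 symbols. *Lhx1* also appears on a cluster shared with *Lhx1os*, with group means from log2 3.07 to 4.43, which was not used. The others had 1 cluster each.

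Mesendoderm is the population of the primitive streak that gives rise to mesoderm and definitive endoderm, and Nodal, BMP and Wnt signals induce it. Cells that leave the epiblast lose E-cadherin under *Snai1*, whereas *Snai2* acts in neural crest and mesenchyme. *Eomes* and *Mixl1* act in the streak, *Gsc*, *Lhx1* and *Foxa2* in the organizer, and *Sox17* in the endoderm. *Gata4* and *Gata6* also drive an earlier lineage, the primitive endoderm, which embryonic stem cells can form in culture.

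The study used ES-D3, a mouse embryonic stem cell line (mESCs), and iMOP cells, an immortalized line of otic progenitors, each untransfected (UT) or 48 h after transfection with 1 of 4 plasmids. pT encodes a tandem dimer Tomato red fluorescent protein (RFP), pAT adds Myc-tagged mouse Atoh1, p183T adds miR-183, miR-96 and miR-182 to RFP, and p183AT carries Atoh1, the miRNAs and RFP. All 4 use the EF-1 alpha promoter, with the miRNAs placed in a human beta globin intron. Each of the 10 groups had 3 samples measured on GeneChip Mouse Gene 2.0 ST arrays.

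mESCs were kept on arrested embryonic fibroblasts with leukemia inhibitory factor, then separated from the fibroblasts, plated on gelatin and transfected with a lipid reagent. iMOP cells are 1 clone, made by transient c-Myc in *Sox2*-expressing progenitors of the embryonic cochlea, and they were grown in suspension with basic FGF and transfected with another reagent. Transfected cells were sorted for RFP, and whether untransfected cells also passed the sorter is not given in the sources. The comparison of pT with UT thus holds plasmid, reagent, RFP and perhaps sorting at once, and these cannot be told apart. The samples are described as biological replicates without saying whether cultures were separate, so a p-value here reflects only how far these samples scatter, which may be technical. In bulk RNA, more cells of a lineage and more transcript per cell cannot be told apart.

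The miRNAs of p183T and p183AT are shown because the main question, whether p183AT exceeds pAT, turns on them. The mature sequences are from RefSeq on GRCm38.p6, 5′ to 3′, with the seed (bases 2 to 8) in capitals.
mmu-miR-183-5p: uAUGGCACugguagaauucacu
mmu-miR-96-5p: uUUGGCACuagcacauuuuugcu
mmu-miR-182-5p: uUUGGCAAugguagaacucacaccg
They lie on the minus strand at chr6:30169711-30169732, chr6:30169506-30169528 and chr6:30165962-30165986. No seed is identical to another.

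The genes carried by the vectors were checked first. *Atoh1* averaged log2 5.0 with pT, 6.01 with pAT and 6.15 with p183AT in mESCs, and 5.38, 6.42 and 6.84 in iMOP cells. In mESCs its rise over pT passed for pAT (adjusted p = 0.0049) and p183AT (adjusted p = 0.0014). In iMOP cells it passed for p183AT (adjusted p = 9.9e-04) but not for pAT, where *Atoh1* differed by 1.04 (adjusted p = 0.066). The hairpin *Mir182* averaged log2 3.61 with pAT in mESCs, against 8.23, 7.80 and 9.81 on the 3 p183AT arrays, so the p183AT arrays carried unequal amounts of the hairpin and the third carried most. Array medians lay between log2 4.37 and 4.69, and replicates correlated at 0.965 to 0.987. Among the iMOP pT arrays the second stood apart: its median was 4.51 against 4.37 and 4.42, and the mean of the 10 factors was 5.62 against 5.17 and 5.20. Results that rest on it are given without it. With 3 arrays a group, both their number and their scatter limit how precise each value is.

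All 10 factors were low to moderate on these arrays. Their group means ran from log2 3.83 (*Gata6* in untransfected iMOP cells) to 7.77 (*Snai2* with pAT in mESCs), and a mean under log2 5, called dim here, is near background. Of the 10, 4 were dim in untransfected mESCs and 2 in each transfected mESC group, *Mixl1* and *Lhx1*. In iMOP cells 6 were dim in untransfected cells and 3 or 4 after transfection. In each group 48.3% to 53.7% of all clusters were dim. The plot of every array shows that *Snai2* and *Gata6* spanned the widest ranges in mESCs, whereas the group means of *Mixl1* and *Gsc* stayed within a narrow range there.

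**Figure D1:**
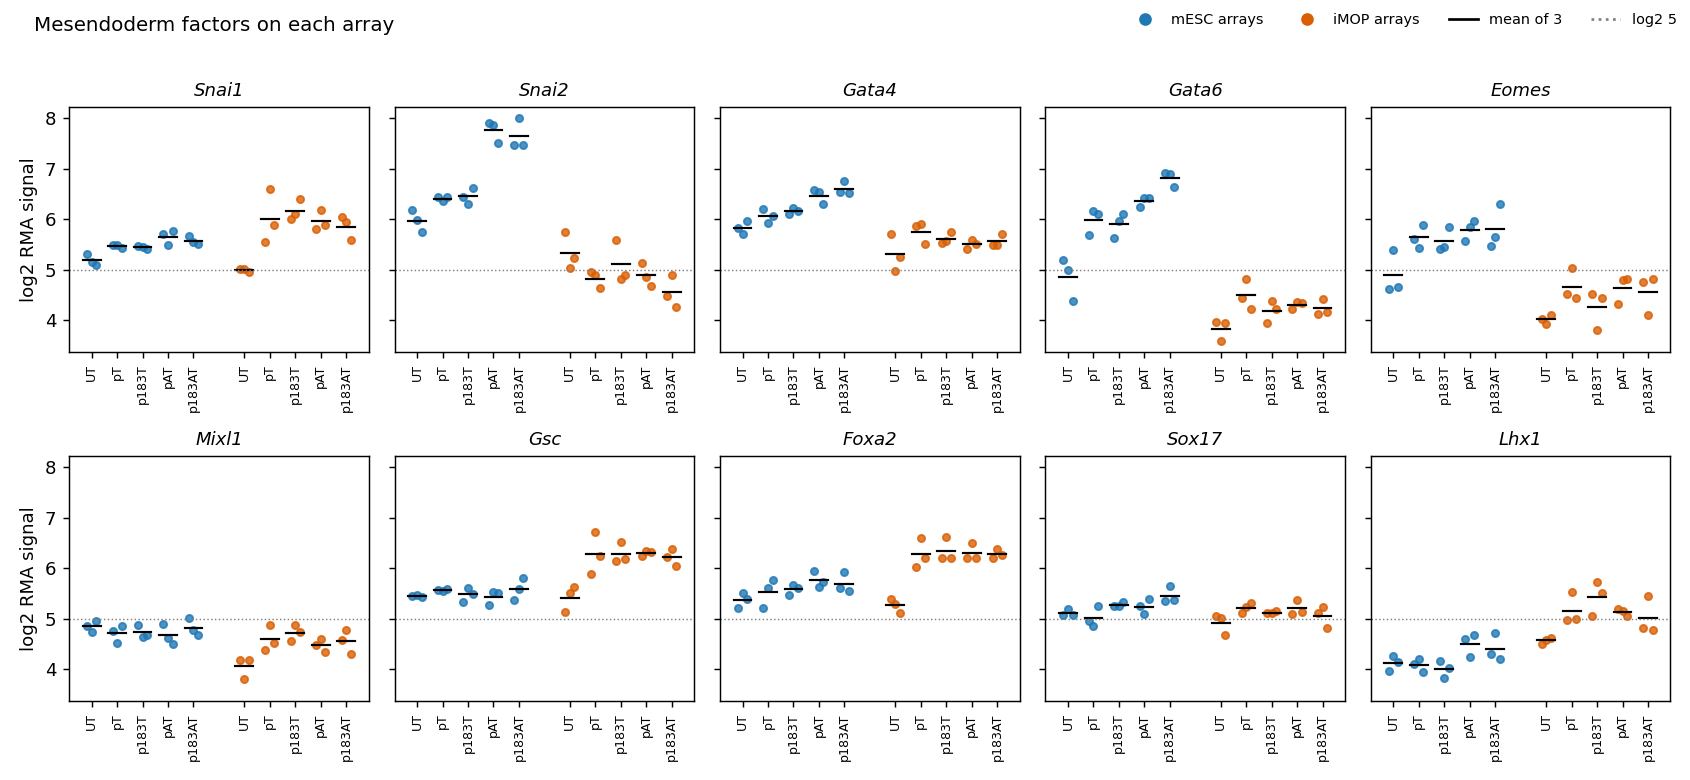
Signal of the 10 factors (log2 RMA value) on each of 30 arrays, with mESC groups in blue, iMOP groups in orange, a bar at the mean of 3 arrays and a dotted line at log2 5. *Snai2* separates both Atoh1 groups of mESCs (means 7.77 and 7.65) from pT (6.41) and p183T (6.45), and *Gata6* is highest with p183AT (6.82).

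Adding the miR-183 family to Atoh1 changed none of the 10 factors past the threshold in mESCs. *Gata6*, a GATA factor needed for primitive endoderm, had the highest difference. It read log2 6.25, 6.42 and 6.43 with pAT and 6.92, 6.90 and 6.64 with p183AT. All 3 p183AT arrays lay above all 3 pAT arrays, a difference of 0.45 (95% interval 0.04 to 0.86, a fold of 1.37), with an unadjusted p of 0.032 and an adjusted p of 0.99 from limma. The p183AT array lowest in *Gata6*, the third, was the highest in *Mir182*. *Gata6* was the only factor of 10 without overlap between these groups, where 6.67% of all clusters had none.

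*Sox17*, a regulator of endoderm, read log2 5.25, 5.08 and 5.39 with pAT and 5.36, 5.64 and 5.37 with p183AT. These ranges overlap, and the difference of 0.21 (95% interval -0.05 to 0.48) had an adjusted p of 0.999. *Gata4*, *Mixl1*, *Gsc* and *Eomes* had positive differences of 0.14, 0.15, 0.15 and 0.02, and *Snai1*, *Snai2*, *Foxa2* and *Lhx1* had negative ones of -0.08, -0.12, -0.07 and -0.10. The signs of *Eomes*, *Foxa2* and *Lhx1* turned when 1 array was left out.

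Thus 0 of 10 were called by limma beside 0.0118% of all 25341 clusters, which were the hairpins *Mir183*, *Mir96* and *Mir182*. At an unadjusted p under 0.05 there was 1 of 10, beside 4.87% of clusters. The median difference of the 10 was 0.08, and that of all clusters 0.01. The intervals, which reach 0.86 for *Gata6* and 0.51 for *Eomes*, allow increases that 3 arrays a group could not show. In iMOP cells 0 of 10 were called as well, also beside 0.0118% of clusters, with 0 of 10 and 3.99% of clusters at an unadjusted p under 0.05, and *Gata6* differed by -0.07 (95% interval -0.42 to 0.28). Between the lines, the step in *Gata6* differed by -0.52 (95% interval -1.05 to 0.01), which did not pass (adjusted p = 0.9998). By limma 0 of 10 differed between the lines beside 0.00395% of clusters, and 0 of 10 beside 4.12% at an unadjusted p under 0.05. In the plot of p183AT minus pAT, each interval but that of *Gata6* in mESCs crosses 0.

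**Figure D2:**
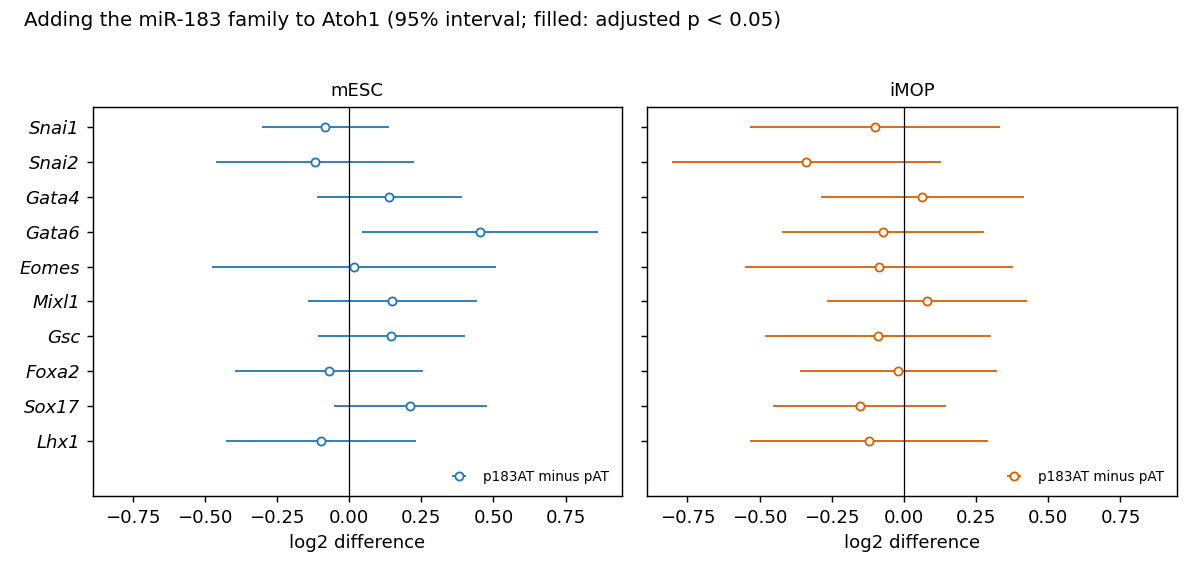
Difference of p183AT minus pAT (log2) for each factor in mESCs and iMOP cells, with points at the limma estimate and lines over the 95% interval. All points are open because none had an adjusted p under 0.05, and only *Gata6* in mESCs (0.45) has an interval above 0.

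In mESCs *Snai2* was higher with both Atoh1 vectors than with pT. *Snai2*, also called Slug, represses epithelial genes in neural crest and mesenchyme. It read log2 6.45, 6.36 and 6.43 with pT, 7.91, 7.88 and 7.52 with pAT and 7.47, 8.01 and 7.48 with p183AT. Every Atoh1 array was above every other mESC array by a wide gap. *Snai2* rose by 1.36 with pAT, a fold of 2.56 (standard error 0.16, adjusted p = 4.0e-04). With p183AT the rise was 1.24, a fold of 2.36 (standard error 0.16, adjusted p = 8.6e-04), and both calls held without any 1 array of the compared groups. It was the 1 factor of 10 called with pAT, where 0.797% of all clusters were.

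*Gata4*, a GATA factor of endoderm and heart, read log2 6.20, 5.93 and 6.06 with pT, 6.57, 6.54 and 6.29 with pAT and 6.54, 6.77 and 6.52 with p183AT. The pT arrays lay below all 6 Atoh1 arrays. Of all clusters, 14.3% had no overlap between pAT and pT, and 14.9% had none between p183AT and pT. Its difference from pT was 0.41 in the pAT group (standard error 0.12, adjusted p = 0.19) and 0.55 in the p183AT group (standard error 0.12, adjusted p = 0.035). That call was lost without any 1 of the 6 arrays, with adjusted p-values from 0.058 to 0.18, and also in a fit of the compared arrays alone (0.19) or of all 30 (0.070).

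*Gata6* read log2 5.69, 6.16 and 6.11 with pT, again below each Atoh1 array. It differed by 0.38 with pAT (95% interval -0.03 to 0.79, adjusted p = 0.65) and by 0.83 with p183AT (95% interval 0.43 to 1.24, a fold of 1.78, adjusted p = 0.052). The p183AT value sat at the threshold. It passed in 5 of 9 other settings, 1 of which was the methods' fold with an unadjusted p. Adjusted p-values ran from 0.014 in the fit of all 30 arrays to 0.43 by the methods' test. The p183AT difference passed in 0 of 6 fits without 1 array, where the adjusted p was 0.068 to 0.27.

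Of 10 factors, 2 (*Snai2* and *Gata4*) were called with p183AT against pT, where 1.05% of all clusters were. All 10 differences were positive there, with a median of 0.24 against 0.02 over all clusters, and 54.4% of all clusters were positive. *Sox17* differed by 0.44 (adjusted p = 0.15) and *Lhx1* by 0.32 (adjusted p = 0.46). *Snai1*, *Eomes*, *Foxa2*, *Mixl1* and *Gsc* lay between 0.01 and 0.16. Both comparisons share the pT arrays.

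With both Atoh1 groups pooled against pT and p183T, a contrast added after the data had been seen, 3 of 10 factors rose, beside 2.90% of all clusters called. *Snai2* rose by 1.28 (adjusted p = 8.1e-06), *Gata6* by 0.65 (adjusted p = 0.013) and *Gata4* by 0.43 (adjusted p = 0.0082), and these 3 calls held without any 1 of the 12 arrays. *Lhx1*, which is dim in mESCs, differed by 0.41 (adjusted p = 0.058). *Gsc* at -0.01 and *Mixl1* at 0.02 did not follow. The plot of the Atoh1 vectors against pT sets these differences beside those in iMOP cells, where no interval lies clear of 0.

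**Figure D3:**
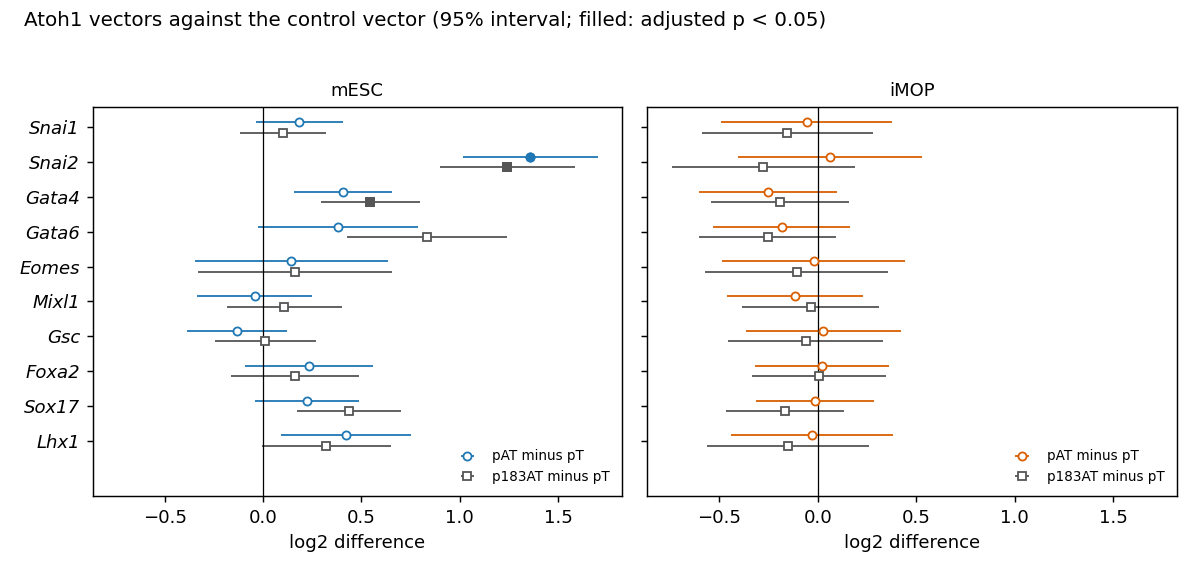
Difference from pT (log2) for pAT (circles) and p183AT (squares) in mESCs and iMOP cells, with lines over the 95% interval and filled symbols at an adjusted p under 0.05. *Snai2* (1.36 and 1.24) and, with p183AT, *Gata4* (0.55) are filled in mESCs, and none is filled in iMOP cells.

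No factor was called with the miRNAs alone. In mESCs 0 of 10 were called with p183T by limma, beside 0.0118% of all clusters, and 0 of 10 beside 2.33% at an unadjusted p under 0.05. Differences ran from -0.09 for *Gsc* to 0.26 for *Sox17*. *Gata6* with p183T read log2 5.63, 5.96 and 6.10, within the pT range except for its lowest array, a difference of -0.09 (95% interval -0.50 to 0.32). Whether the step from pAT to p183AT differed from that from pT to p183T was tested as well. The difference of steps was 0.54 for *Gata6* (95% interval -0.04 to 1.12, adjusted p = 0.9998), and limma called 0 of 10 factors and 0% of all clusters, with 0 of 10 and 3.28% at an unadjusted p under 0.05. Pooled over vectors with and without Atoh1, the miRNAs gave 0.18 for *Gata6* and 0.23 for *Sox17*, with an adjusted p of 0.9998 for each. Limma called 0 of 10 beside 0.0158% of clusters, and 1 of 10, *Sox17*, beside 3.52% at an unadjusted p under 0.05.

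*Gata6* was already higher in mESCs with the control vector than without transfection. Untransfected cells read log2 5.19, 5.0 and 4.38, all below the pT arrays, and *Gata6* rose by 1.13 (standard error 0.19, a fold of 2.19, adjusted p = 8.2e-04). Of all clusters, 31.3% had no overlap between these groups. *Eomes*, needed for the exit of mesoderm and endoderm from the streak, read log2 4.62, 5.38 and 4.65 in untransfected cells and 5.61, 5.42 and 5.89 with pT. It rose by 0.76 (standard error 0.23, adjusted p = 0.041), although its second untransfected array came close to the pT range. The *Eomes* call was lost without untransfected replicate 1 (adjusted p = 0.15) or 3 (0.15) or pT replicate 1 (0.097) or 3 (0.15). These were 2 of 10 factors, and 13.1% of all clusters were called in this comparison. *Snai2* (0.44, adjusted p = 0.094) and *Snai1* (0.28, adjusted p = 0.087) did not pass, and *Mixl1*, *Sox17* and *Lhx1* differed by -0.14, -0.10 and -0.04.

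The order of *Gata6* in mESCs was therefore p183AT, pAT, pT, p183T and untransfected, and only pT and p183T overlapped as neighbours. For *Snai2* the order was pAT, p183AT, p183T, pT and untransfected, with overlap within the Atoh1 pair and within the pair of p183T and pT. *Gata4* ran in the order p183AT, pAT, p183T, pT and untransfected, and its only gap between neighbours lay between pAT and p183T.

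In iMOP cells no factor was called with an Atoh1 vector. *Snai2* read log2 4.95, 4.90 and 4.63 with pT, 5.14, 4.85 and 4.67 with pAT and 4.48, 4.90 and 4.27 with p183AT. These ranges overlap and lie near background. Against pT, 0 of 10 factors were called with pAT (0.0197% of all clusters), p183AT (0.138%) or p183T (0.0118%), by limma. At an unadjusted p under 0.05 there were 0 of 10 in each, beside 6.69%, 6.42% and 3.87% of clusters. *Gata6* stayed dim in all 5 iMOP groups, with pAT arrays at 4.22, 4.36 and 4.34. *Foxa2* differed by 0.02 (95% interval -0.32 to 0.37) with pAT and *Gata4* by -0.25 (95% interval -0.61 to 0.10). Pooling both Atoh1 groups also called 0 of 10, beside 0.331% of clusters, with 0 of 10 and 9.06% of clusters at an unadjusted p under 0.05.

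The response of *Snai2* to the Atoh1 vectors differed between the lines. In iMOP cells minus mESCs the difference in response was -1.52 with p183AT (standard error 0.29, adjusted p = 0.0090), 1 of 10 factors beside 0.320% of all clusters, and it held without any 1 of the 12 arrays. With pAT it was -1.30 (standard error 0.29, adjusted p = 0.038), again 1 of 10 factors beside 0.312% of clusters. The pAT call held in only 3 of 12 omissions, those of mESC pAT replicate 3, iMOP pT replicate 3 and iMOP pAT replicate 1. Without 1 of the other arrays (mESC pT 1, 2 or 3, mESC pAT 1 or 2, iMOP pT 1 or 2, iMOP pAT 2 or 3) the adjusted p was 0.067 to 0.13 and the difference -1.42 to -1.19 over all omissions. *Gata6* differed by -1.09 with p183AT (adjusted p = 0.061). It passed in 1 of 12 omissions, that of iMOP pT replicate 3 (adjusted p = 0.043), and in 1 of 6 other settings. Over all of these the limma adjusted p reached 0.22.

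In iMOP cells most of the factors were higher with the control vector than without transfection. *Snai1*, which represses E-cadherin in gastrulating cells, read log2 5.01, 5.01 and 4.95 in untransfected cells and 5.55, 6.60 and 5.88 with pT. The pT arrays were all higher and far more spread, with the second highest. *Snai1* rose by 1.02 (standard error 0.21, adjusted p = 6.4e-04). *Foxa2*, a forkhead factor of node and endoderm, read log2 5.39, 5.30 and 5.11 untransfected and 6.04, 6.59 and 6.20 with pT. It rose by 1.01 (standard error 0.16, adjusted p = 7.7e-05). Its groups did not overlap, as was so for 50.8% of all clusters. *Gsc*, a repressor that acts in the organizer, read log2 5.13, 5.51 and 5.62 untransfected and 5.88, 6.72 and 6.24 with pT. *Gsc* rose by 0.86 (standard error 0.19, adjusted p = 0.0011).

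*Gata6* (0.66), *Eomes* (0.65), *Lhx1* (0.59), *Mixl1* (0.54) and *Gata4* (0.45) rose too, with adjusted p-values from 0.0037 to 0.040. All but *Gata4* rose from dim levels, and *Gata6*, *Eomes* and *Mixl1* were still dim with pT (means log2 4.49, 4.66 and 4.59). *Snai2* went the other way at -0.51 (adjusted p = 0.072), and *Sox17* differed by 0.30 (adjusted p = 0.11). In all 8 of 10 factors were called, beside 41.3% of all clusters in either direction and 19.4% higher. Among the 5593 clusters whose mean over all arrays lay within the range of the factors, 24.3% were higher. Without the second pT array 4 remained, *Snai1* (0.73), *Gata6* (0.49), *Gsc* (0.64) and *Foxa2* (0.85). *Gata4* was also lost without untransfected replicate 2 or 3 or pT replicate 1, *Eomes* without untransfected replicate 1 or 2, *Lhx1* without untransfected replicate 1 and *Mixl1* without untransfected replicate 2, with adjusted p-values from 0.057 to 0.22. Of 14 naive pluripotency genes, 10 of them dim in untransfected iMOP cells, 7 rose in the same comparison.

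*Foxa2* took the very same value, log2 6.20, on 6 of the 12 transfected iMOP arrays. Only 1.92% of all clusters have a value shared by 6 or more arrays. These arrays enter the estimate of spread behind the *Foxa2* results, and how the shared value alters its standard errors and p-values was not tested.

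*Gata6* and *Eomes*, called in mESCs, were also called higher in iMOP cells, as the plot of pT against untransfected cells shows, though both were dim in iMOP cells. The difference between the lines in this response, added after the data had been seen, was 0.86 for *Foxa2* (adjusted p = 0.0038), 0.74 for *Gsc* (0.012), 0.74 for *Snai1* (0.018) and 0.67 for *Mixl1* (0.017), all higher in iMOP cells, and -0.95 for *Snai2* (0.011). These were 5 of 10 factors, and 35.6% of all clusters were called. Without the second iMOP pT array only *Foxa2* (0.70) and *Snai2* (-0.99) passed, and *Mixl1* was also lost without mESC pT replicate 2 (adjusted p = 0.056) or untransfected iMOP replicate 2 (0.064). *Mixl1* was dim in all of these groups.

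**Figure D4:**
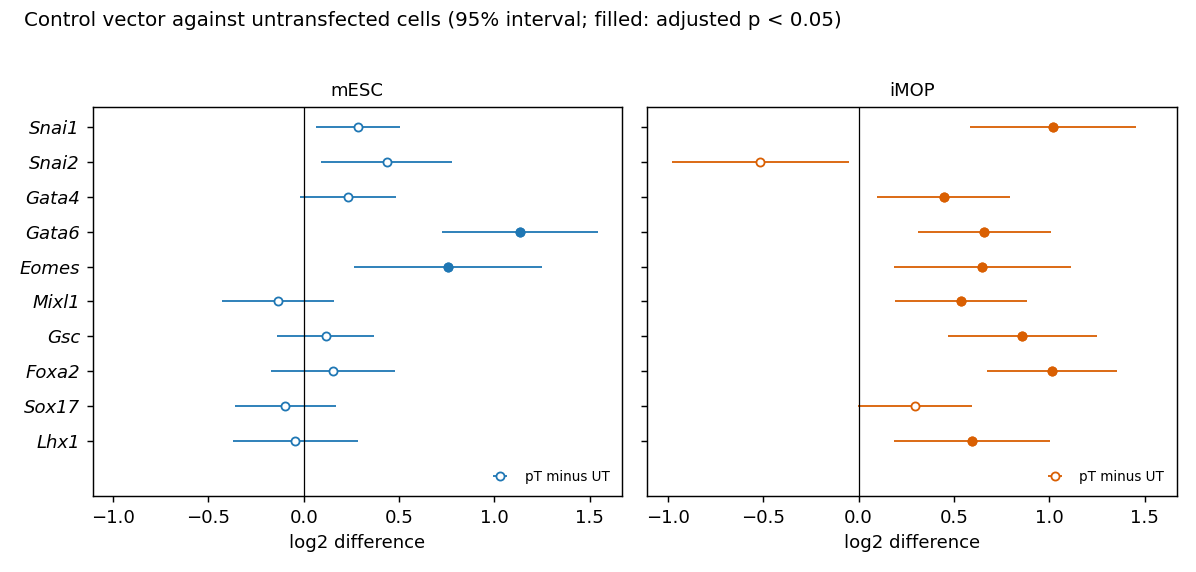
Difference of pT minus untransfected cells (log2) for each factor in mESCs and iMOP cells, with lines over the 95% interval and filled points at an adjusted p under 0.05. *Gata6* (1.13) and *Eomes* (0.76) are filled in mESCs, and 8 factors are filled in iMOP cells, all but *Snai2* and *Sox17*.

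Before transfection the lines differed in 6 of the 10 factors, beside 57.5% of all clusters called. *Gata6* (-1.02, adjusted p = 0.0014), *Eomes* (-0.87, 0.0028), *Mixl1* (-0.79, 7.1e-04), *Snai2* (-0.64, 0.015) and *Gata4* (-0.52, 0.028) were lower in iMOP cells, and *Lhx1* (0.44, 0.012) was higher. *Gata6* read log2 3.96, 3.60 and 3.94 in iMOP cells, below each mESC array, and 63.5% of all clusters had no overlap between these groups. The median of all clusters was -0.20 here, with 4640 clusters called higher and 9922 lower. After quantile normalization of the 30 arrays that median was 0.01, with 7104 higher and 6901 lower. *Gata6* (-0.80), *Eomes* (-0.63), *Mixl1* (-0.56) and *Lhx1* (0.71) still passed after that, and *Snai2* (-0.37, adjusted p = 0.11) and *Gata4* (-0.25, adjusted p = 0.24) did not. All that still passed were dim in both lines, so these differences lie near background. Their means in mESCs and iMOP cells were log2 4.85 and 3.83 for *Gata6*, 4.89 and 4.02 for *Eomes*, 4.85 and 4.06 for *Mixl1*, and 4.13 and 4.57 for *Lhx1*. *Gata4* was also lost without mESC replicate 1 or 3 or iMOP replicate 2 or 3, and *Snai2* without mESC replicate 1 or iMOP replicate 2 or 3, with adjusted p-values from 0.053 to 0.12.

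Other genes of the same lineages were read from lists in mESCs. Of 21 markers of primitive and extraembryonic endoderm, 9 rose and 0 fell with pT against untransfected cells, where 7.07% of all clusters rose and 6.07% fell. Among them were *Cubn* (2.16), the endocytic receptor cubilin, the adaptor *Dab2* (1.16), the receptor *Fgfr2* (1.47) and the collagen chaperone *Serpinh1* (1.11). With pAT against pT 3 rose beside 0.517% of all clusters, *Cubn* (0.88), *Dab2* (0.69) and *Lrp2* (0.64), the receptor megalin. With p183AT against pT 4 rose beside 0.738%, *Cubn* (1.33), *Pdgfra* (0.88), *Dab2* (0.76) and *Lrp2* (0.71), and the median of the list was 0.37 against 0.02 over all clusters. None of the 21 was called for p183AT against pAT (limma, 1 at an unadjusted p under 0.05, where 4.87% of all clusters were), with a median of 0.07. With both Atoh1 groups pooled, 8 of the 21 rose beside 1.77% of all clusters.

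The mean of this list was log2 5.93 to 6.06 on untransfected mESC arrays, 6.31 to 6.46 with pT, 6.59 to 6.76 with pAT and 6.73 to 6.78 with p183AT. Untransfected, pT and Atoh1 arrays do not overlap in it.

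Markers of the primitive streak and early mesoderm were read in the same way. Of 27 measured genes, limma called 0 with pAT, beside 0.797% of all clusters. At an unadjusted p under 0.05 there were 9, where 8.33% of all clusters were. With p183AT 2 rose beside 0.738% of all clusters, *Pdgfra* (0.88) and *Kdr* (0.86), receptors of early mesoderm and vessels. Of these *Pdgfra* is also on the endoderm list, and *Kdr* was dim in both groups (log2 4.95 with p183AT and 4.09 with pT). Among 19 genes of definitive endoderm and organizer, 0 were called with pAT (4 at an unadjusted p under 0.05), *Prdm1* fell with p183AT (-0.71), and with pT against untransfected cells 6 rose beside 7.07% of all clusters, among them *Otx2* (1.84), *Cldn6* (0.82) and *Foxa1* (0.62). Of 21 genes of Nodal and Activin signalling, 7 rose and 2 fell with pT against untransfected cells, beside 7.07% and 6.07% of all clusters, including *Lefty1* (1.67) and *Lefty2* (1.07), feedback inhibitors of Nodal, the transducer *Smad3* (0.94) and, lower, *Inhbb* (-1.01). *Smad3* rose again with pAT (0.63) and p183AT (0.69), the only called gene of that list in both, where 0.797% and 1.05% of all clusters were called.

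Of 23 genes of epithelial-mesenchymal transition, 1 rose with each Atoh1 vector, beside 0.517% of all clusters with pAT and 0.738% with p183AT. That gene was *Cdh2*, which encodes N-cadherin. It rose by 1.09 (adjusted p = 2.2e-04) in the pAT group and by 1.06 (adjusted p = 2.8e-04) in the p183AT group. Of 15 neural crest genes 0 were called with either vector by limma, with 4 (pAT) and 2 (p183AT) at an unadjusted p under 0.05. Over all clusters 8.33% and 11% were under that p. With both Atoh1 groups pooled, 3 of the 23 transition genes rose beside 1.77% of all clusters. These were *Cdh2* (1.09), *Mmp2* (0.39) and *Twist1* (0.38, adjusted p = 0.049). *Twist1* is also on the neural crest list and was the only 1 of those 15 called.

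Naive pluripotency genes went the other way. Of 14, 7 fell with pT against untransfected cells, beside 6.07% of all clusters. Against pT 5 fell with pAT, beside 0.28%, and 4 with p183AT, beside 0.316%, among them *Nr5a2* (-1.18 with pAT), *Tcl1* (-1.14) and *Prdm14* (-1.11). Their mean was log2 8.70 to 8.76 untransfected, 8.08 to 8.40 with pT, 7.51 to 7.86 with pAT and 7.60 to 7.78 with p183AT.

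Fibroblasts, such as those of the feeder layer, express *Snai2*. The mean of 19 fibroblast markers was log2 5.26 to 5.36 in untransfected mESCs, 5.16 to 5.23 with pT, 5.23 to 5.44 with pAT and 5.22 to 5.38 with p183AT, and 8 of the 19 were dim in each. Limma called 0 of 19 against pT with either Atoh1 vector (4 in each at an unadjusted p under 0.05, where 8.33% of all clusters were with pAT and 11% with p183AT), with list medians of 0.16 and 0.10. With both Atoh1 groups pooled, 2 of 19 rose beside 1.77% of all clusters, *Acta2* by 0.63 (adjusted p = 0.034) and *Mmp2* by 0.39 (adjusted p = 0.031). With pT against untransfected cells 3 of 19 rose and 2 fell, beside 7.07% and 6.07% of all clusters. The 4 largest were *Acta2* (-1.60), *Mmp2* (1.24), *S100a4* (-0.79) and *Loxl1* (0.72). The part of fibroblast RNA in the rise of *Snai2* was not tested. In the plot of list levels the endoderm list rises and the naive list falls over the mESC groups. The mean of the fibroblast list, whose genes moved in both directions with pT, lies between log2 5.09 and 5.44 on mESC arrays.

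**Figure D5:**
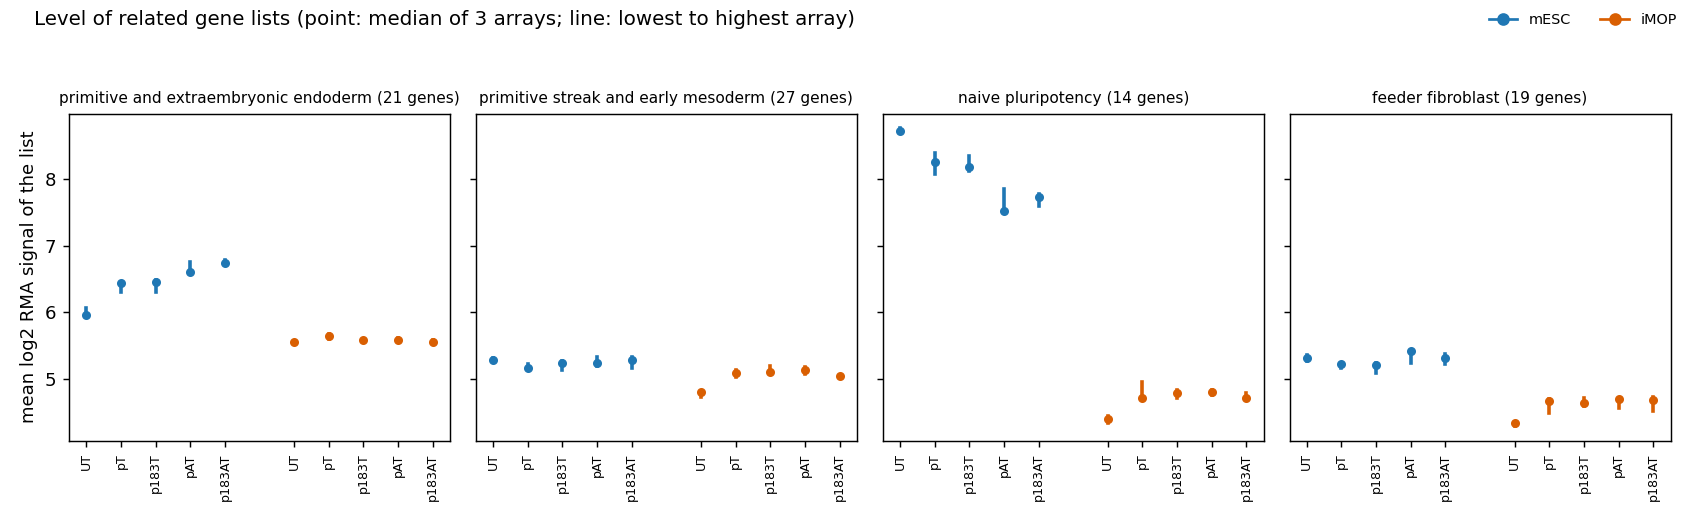
Mean signal (log2) of 4 lists by group, with points at the median of 3 arrays and lines from the lowest to the highest array, mESCs in blue and iMOP cells in orange. In mESCs the endoderm list climbs from 5.93 to 6.78 and the naive list falls from 8.76 to 7.51 between the extreme arrays.

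The genes most like the 3 widest-ranging factors over the 15 mESC arrays were found by Pearson correlation, which is given as a description since the arrays share groups. *Gata6* was closest to *Dab2* (0.954), *Marcks* (0.954) and *Pard3* (0.948). *Snai2* was closest to *Zbp1* (0.973), *Trp53i11* (0.972) and *Cald1* (0.968), and *Eomes* to *Gmeb1* (0.945), *Txndc5* (0.934) and *Moxd1* (0.932).

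Atoh1 is a basic helix-loop-helix factor, a family that binds E-boxes (CANNTG). RefSeq promoter windows on GRCm38.p6, 250 bases before to 50 after a start, were matched for 5 of the 10 factors, *Snai1*, *Eomes*, *Gsc*, *Foxa2* and *Lhx1*, with 7 windows. Of these 3 hold CANNTG, which reads alike on both strands, and 72.31% of all 32851 windows do. *Snai1* and *Gsc*, neither of them called with Atoh1 in either line, are shown with their E-box in capitals. The *Snai1* box, CACCTG, is the form that Snail factors bind, and the *Gsc* box, CATCTG, reads CAGATG on the other strand, which 17.15% of all windows hold on either strand.
Snai1, chr2:167537945-167538244, plus strand: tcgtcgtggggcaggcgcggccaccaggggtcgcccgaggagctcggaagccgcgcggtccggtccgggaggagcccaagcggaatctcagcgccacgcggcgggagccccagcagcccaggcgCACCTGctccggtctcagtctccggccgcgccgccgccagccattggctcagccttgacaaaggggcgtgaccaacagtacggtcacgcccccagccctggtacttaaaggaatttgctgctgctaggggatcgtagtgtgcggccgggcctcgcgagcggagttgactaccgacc
Gsc, chr12:104473187-104473486, minus strand: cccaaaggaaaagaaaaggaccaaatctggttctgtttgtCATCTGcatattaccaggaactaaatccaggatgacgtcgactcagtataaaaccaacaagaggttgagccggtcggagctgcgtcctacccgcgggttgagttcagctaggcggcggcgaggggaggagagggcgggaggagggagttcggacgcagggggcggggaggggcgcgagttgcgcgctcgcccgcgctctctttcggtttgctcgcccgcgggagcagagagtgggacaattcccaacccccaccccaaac
A match to 6 letters describes the sequence and is not a measured binding site.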

How the data were processed

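RNA of 30 samples was labelled with the WT PLUS kit. The deposited values are on a log2 scale, and the submitters' notes name RMA and Affymetrix Expression Console 1.4.1.46. The sources used here do not say which arrays shared a normalization. All 30 columns were mapped to a sample. Of 41345 transcript clusters, 25341 carried a symbol and were tested (1820 of them several symbols, which name no gene here).

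limma 3.58.1 in R 4.3.3 was fitted with 1 mean per group to the 15 arrays of a line, the 6 untransfected arrays, or all 30 arrays for differences between lines. P-values are two-sided, adjusted by Benjamini and Hochberg over all 25341 clusters, and called under 0.05. The methods' one-way comparison of each pair is an alternative. The 10 factors and the lists were chosen with earlier results of these data known. From each list up to 4 called genes per comparison are named, those of largest difference, and for 3 factors the 3 most correlated genes. Pooled contrasts, and the line difference in pT against UT, were added after seeing the data. The fit was tested on simulated data.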

Additional observations from a re-analysis of the deposited data

Results flagged for a closer look

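The response of *Snai2* differed between the lines, tested as a difference of responses over all 30 arrays. In iMOP cells minus mESCs it was -1.30 (log2) with pAT against pT, -1.52 with p183AT against pT and -0.95 with pT against untransfected cells. In mESCs *Snai2* rose with each Atoh1 vector, and in iMOP cells its mean was dim with pT (log2 4.83), pAT (4.89) and p183AT (4.55).

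With pT against untransfected cells, 4 factors differed between the lines in the other direction, with larger responses in iMOP cells: *Foxa2* by 0.86, *Gsc* by 0.74, *Snai1* by 0.74 and *Mixl1* by 0.67. Of these only *Foxa2* passed without the second iMOP pT array, and 6 of the 12 transfected iMOP arrays share 1 *Foxa2* value. *Mixl1* was dim in every group of both lines. The lines were transfected with different reagents, and line and reagent cannot be told apart.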

How the results depend on the processing

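Counts are of the 10 factors called. A signal filter kept only clusters at log2 6 or more on at least 3 fitted arrays, so a factor that reached that level in 1 group alone was kept through its difference. For p183AT against pAT the count stayed 0 in both lines in every alternative run. In mESCs the 1 call with pAT against pT went to 0 with the methods' test after Benjamini-Hochberg adjustment. The 2 calls with p183AT against pT became 1 in a fit of the compared arrays, 0 with the methods' test after adjustment, and 1 (lowest 1, highest 1) when an array was left out. With pT against untransfected mESCs the 2 calls became 1 in a fit of the compared arrays, 1 with the signal filter, 1 at the methods' fold and unadjusted p, 0 with that test after adjustment, and 1 to 2 when an array was left out. In iMOP cells the 8 calls with pT against untransfected became 3 with the signal filter, which removed the other 7 factors and kept *Snai1*, *Gsc* and *Foxa2* through transfected arrays alone, so that 3 says nothing about stability. They became 1 with the methods' test after adjustment, and 4 to 8 when an array was left out. Between untransfected lines the 6 calls became 0 with the signal filter, which removed all 10, 1 at the methods' fold and unadjusted p and 3 with that test after adjustment. For the difference between lines the 1 call with pAT against pT became 0 with quantile normalization and 0 to 1 when an array was left out, the 1 with p183AT against pT became 2 with the signal filter and 1 to 2 when an array was left out, and the 5 with pT against untransfected became 2 to 6. The cause was not tested, except that fewer clusters or arrays entered some fits. For p183AT against pAT in mESCs, the difference ran from -0.229 to 0.185 for *Eomes*, -0.182 to 0.017 for *Foxa2* and -0.252 to 0.006 for *Lhx1* when an array was left out. The sign turned without pAT replicate 1 (*Eomes* -0.093, *Foxa2* 0.017) or p183AT replicate 3 (*Eomes* -0.229, *Foxa2* 0.003, *Lhx1* 0.006). Whether replicate numbers pair the samples is not given in the sources, and correlations of deviations cannot exclude it. Same-numbered arrays correlated in their deviations at a median of 0.02 in mESCs and 0.04 in iMOP cells. Arrays of other numbers had medians of -0.01 and -0.02. In each line 9 of 30 same-numbered pairs were over 0.1. Of 15 arrays, 6 in mESCs and 7 in iMOP cells correlated best with their own number. With the replicate number as a block, p183AT against pT in mESCs had 1 call (*Gata4* at an adjusted p of 0.058). Low signal limits *Mixl1* and *Lhx1* in mESCs, *Gata6* and *Eomes* in untransfected mESCs and most factors in untransfected iMOP cells. It also limits *Gata6*, *Eomes* and *Mixl1* in the transfected iMOP groups.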
